A study of Mus musculus with 8 samples.

Results

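The 33 genes described here supply amino acids to CD8 T cells or belong to the response run by the transcription factor ATF4. They were taken by symbol from a fixed list of amino acid transporters, serine and one-carbon enzymes and ATF4 targets. The list was chosen with earlier results of these data known. Among the 24976 genes of the count table all 33 were found. Of these, 28 had enough counts to be tested, among 13073 tested genes in all.

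Bulk RNA-seq covered 8 libraries of CD8 T cells taken out of tumours of B16-OVA, a mouse melanoma line carrying the ovalbumin antigen. Hosts were Rag2-/- mice, in which lymphocytes with rearranged receptors are missing and NK and myeloid cells remain. They received tumour cells under the skin 10 days before the T cells, and CD3e+CD8+ cells were sorted 10 days after the transfer, with each implanted mouse giving a sample. The 4 groups hold 2 libraries each. They are Nr4a dKO PD1+Tim3+, WT PD1+Tim3+, Nr4a dKO PD1+Tim3- and WT PD1+Tim3-. The dKO donors had floxed NR4a1 and NR4a2 alleles, Cd8Cre, which acts in cells that switch on Cd8, and OT-ITg/+, a receptor transgene against ovalbumin. Whether OT-I was also present in WT donors is not stated by the labels, so that receptor specificity and genotype cannot be told apart. The sources used here give no donor or host ages. PD1 and Tim3 are inhibitory receptors, and Tim3 marks the more exhausted cells. The study asked how loss of both NR4A factors alters exhausted cells in the tumour.

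ATF4 is a bZIP transcription factor whose protein is made when the kinases of the integrated stress response phosphorylate the initiation factor eIF2alpha, as in amino acid shortage. Much of its control is therefore in translation and is not seen in its mRNA. Its targets import amino acids, make asparagine, serine and glycine, load tRNAs and, through CHOP and TRIB3, limit or end the response. Activated T cells also raise these genes through mTORC1 and MYC, because serine-derived one-carbon units feed nucleotide synthesis.

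ATF4 binds DNA together with C/EBP proteins at a composite element whose core is TGATGNAA, or TTNCATCA on the other strand. Both were searched in RefSeq windows (GRCm38.p6) that run from 250 bases before to 50 bases after each gene's start. Windows were held for 28 of the 33 members. Of these 28, 9 had a match (32.1%), against 1219 of all 27025 genes with a window (4.51%). The members were listed in part as ATF4 targets, so that a higher share is partly built into the list. The Slc7a11 window had 2 matches, in opposite orientation and with no shared base, and 23 genes of 27025 (0.0851%) had 2 or more in a window. The stretches below lie upstream of the start, are written along the gene's own strand, and have the element's core in capitals. Slc7a11, Asns and Got1 are shown because they carry the core and moved or leaned in the comparisons. Chac1 and Nupr1 are shown because they carry it at or near 0 counts. Shmt1, Slc7a1, Psph and Mthfd2 were also called in a comparison, and their windows had no match. For Eif4ebp1, called as well, no window was held.
Slc7a11, chr3:50443627-50443706, reverse strand: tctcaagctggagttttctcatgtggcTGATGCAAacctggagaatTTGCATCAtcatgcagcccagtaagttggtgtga
Asns, chr6:7693210-7693289, reverse strand: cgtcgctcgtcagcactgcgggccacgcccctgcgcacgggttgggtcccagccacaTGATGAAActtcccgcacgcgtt
Got1, chr19:43524664-43524743, reverse strand: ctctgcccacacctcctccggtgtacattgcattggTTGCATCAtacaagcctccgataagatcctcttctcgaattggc
Chac1, chr2:119351013-119351092, forward strand: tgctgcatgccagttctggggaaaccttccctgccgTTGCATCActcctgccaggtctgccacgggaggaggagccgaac
Nupr1, chr7:126625537-126625616, reverse strand: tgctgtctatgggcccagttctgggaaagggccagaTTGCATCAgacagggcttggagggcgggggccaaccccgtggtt
In Slc7a11 the cores lie 66 to 59 and 47 to 40 bases before the start, and in Asns 23 to 16 bases before it. The other matches were in Trib3, Slc1a4, Pycr1 and Vldlr. The Trib3 match lies 15 to 22 bases after the start, in a window whose start was not found in a GENCODE transcript of the gene. The Slc1a4 match spans the start. A match describes these letters and is not a measured binding site.

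Before the comparisons, the libraries and the targeted genes were checked. Library totals spanned 1944999 to 13418762 counts, and the smallest was replicate 2 of PD1+Tim3- labelled dKO. The 11 markers of CD8 T cells were all counted in every group. Havcr2, which encodes Tim3, had 56.6 and 58.2 CPM in PD1+Tim3+ labelled dKO and 41.8 and 43.6 in WT PD1+Tim3+, against at most 3.62 CPM in the 4 PD1+Tim3- libraries. CPM are counts scaled to a fixed library size after TMM normalisation, as edgeR computes them. Nr4a1 had 1194 and 1175 CPM in PD1+Tim3+ labelled dKO against 803 and 789 in WT, and 1331 and 1489 CPM in PD1+Tim3- labelled dKO against 979 and 824 in WT. Nr4a2 had 954 and 984 CPM in PD1+Tim3+ labelled dKO against 1034 and 979 in WT, and 937 and 929 CPM in PD1+Tim3- labelled dKO against 990 and 958 in WT. Nr4a1 thus went against the label, without passing in edgeR's test (adjusted p 0.0944 in PD1+Tim3+ and 0.126 in PD1+Tim3-). Nr4a2 was not called either, with log2 fold changes of -0.05 and -0.06 (adjusted p 0.921 and 0.914). The counts thus show loss of neither targeted gene, and the sources used here do not say which exons they cover. Every genotype direction below is therefore that of the labels. Summed levels of 11 counted B16 melanoma markers ran from 22.2 to 28.9 CPM over the 8 libraries, and those of 10 macrophage markers from 11.6 to 24.5 CPM. Erythroid markers summed to 33.2 and 110 CPM in PD1+Tim3+ labelled dKO, 6.43 and 34.2 in their WT counterparts, 3.67 and 3.80 in PD1+Tim3- labelled dKO and 3.52 and 8.10 in WT PD1+Tim3-, and their part in any result was not tested. Rn45s and Rn18s, genes of ribosomal RNA, made up 6.53% to 8.36% of counts in PD1+Tim3+ libraries and 1.61% to 2.37% in PD1+Tim3- libraries, and a fit without them made the same number of member calls in every comparison.

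Per kilobase, with the union of a gene's exon bases as its length, the members differed widely in level. Atf4 was the highest, with a median of 135 CPM per kilobase over the 8 libraries and a range of 124 to 154. It was followed by Slc3a2, the shared heavy chain of several amino acid transporters, at a median of 63.6 CPM per kilobase, then by the glutamine carrier Slc1a5 at 50.4 and the neutral amino acid carrier Slc38a2 at 34.98. Slc7a5, the light chain that pairs with Slc3a2 to import leucine, stood at a median of 6.82 CPM per kilobase. Slc7a11, the cystine importer that pairs with the same heavy chain, had a median of 3.27. With the median length of the coding transcripts instead, the medians were 7.81 CPM per kilobase for Slc7a11 and 7.19 for Slc7a5, so that their order depends on the length used. Atf4, Slc3a2 and Slc1a5 led under both lengths, with 185, 123 and 76.1 CPM per kilobase of coding transcript. This second length was chosen after seeing the data. In the middle of the order by exon union, neighbours were within each other's range, as for Slc38a1, Aldh18a1, Psph, Slc7a6 and Slc7a1, whose medians ran from 7.84 to 8.25 CPM per kilobase.

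**Figure D1:**
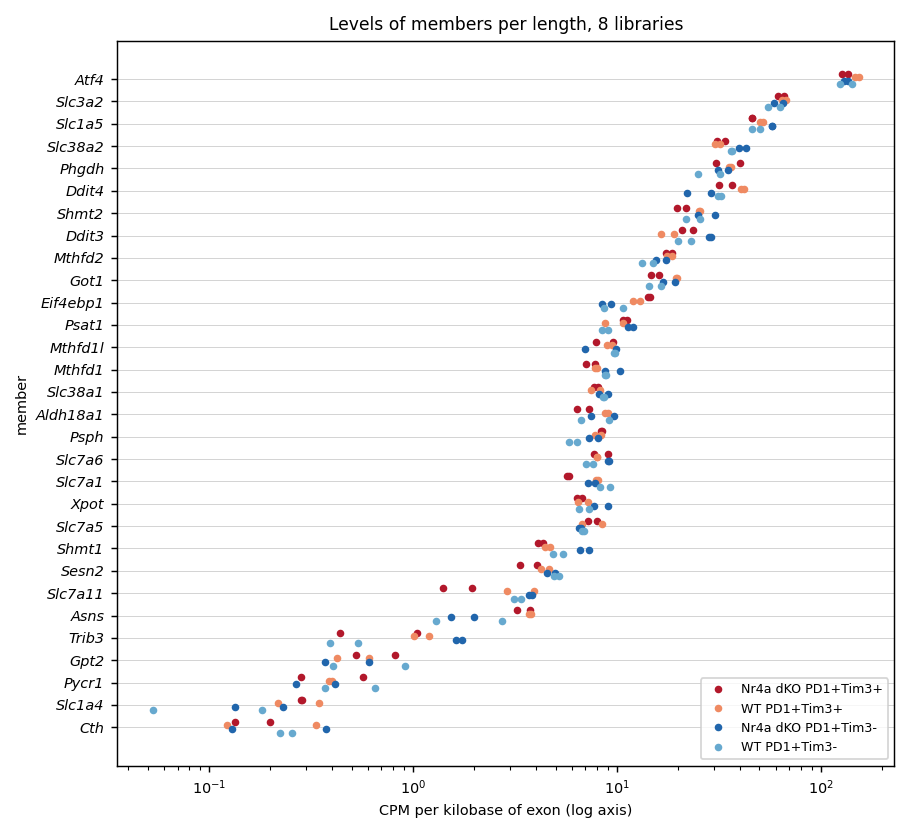
Level of each member in the 8 libraries, in CPM per kilobase of exon on a log axis, with a point per library coloured by group. Atf4 is at the top with a median of 135, the PD1+Tim3+ libraries labelled dKO lie left of the other 6 for Slc7a11, and Vldlr, Chac1 and Nupr1, which have a library at 0, are left out.

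Members under the low-count filter were Chac1, Cth, Slc1a4, Nupr1 and Vldlr. Nupr1, a stress-induced chromatin protein, had 0 counts in all 8 libraries, which allows between 0.224 and 1.54 CPM depending on the library, from counting error alone. Chac1, which degrades glutathione and is a strong target of ATF4 in stressed cells, had 7 counts in replicate 2 of WT PD1+Tim3+ and at most 2 in any other library. Cth, which makes cysteine from cystathionine, had 2 to 13 counts, Slc1a4, a carrier of serine and alanine, 1 to 19, and the lipoprotein receptor gene Vldlr 0 to 12. These 5 genes gave no test. Among the tested members, Trib3, Pycr1 and Gpt2 had the lowest counts, from 4 to 30, 2 to 22 and 4 to 48.

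**Figure D2:**
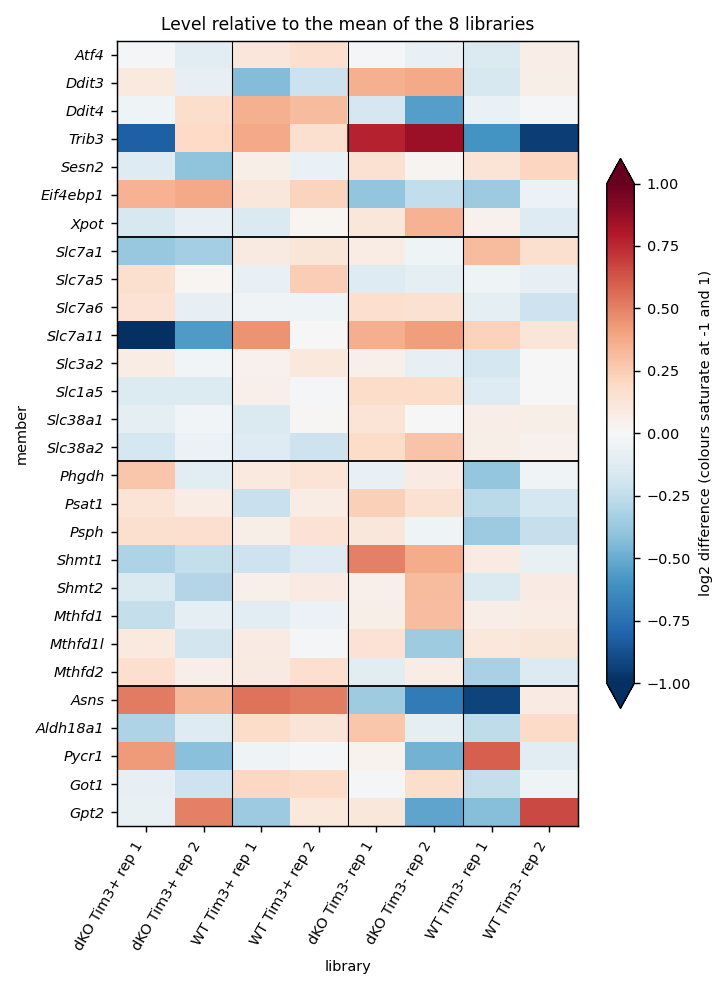
Heat map of the 28 tested members (rows, grouped by role) in the 8 libraries (columns), coloured by the log2 difference from the mean of the 8 libraries. Slc7a11 is blue in the PD1+Tim3+ libraries labelled dKO, Asns is red in all 4 PD1+Tim3+ libraries, and Trib3 is red in both PD1+Tim3- libraries labelled dKO.

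The first comparison sets genotypes side by side in PD1+Tim3+ cells, the terminally exhausted population. Slc7a11 encodes xCT, the light chain of the transporter that brings in cystine in exchange for glutamate, and fell in the libraries labelled dKO. It had 19.6 and 27.0 CPM in PD1+Tim3+ labelled dKO, against 54.8 and 40.3 CPM in WT PD1+Tim3+. In bulk RNA, fewer cells that express a gene and less RNA per cell cannot be told apart. The groups did not overlap, and the library labelled dKO with more Slc7a11 was still below the lower WT library. The log2 fold change was -1.01 ± 0.18 (SE), with an adjusted p of 0.0309 in edgeR's quasi-likelihood test. Slc7a11 ranked 54 of 13073 genes by p. Its gene spans bases 49892526 to 50443614 of chromosome 3 (GRCm38, reverse strand), and none of its exon bases is shared with another gene. Of 11 B16 melanoma markers 10 were counted in each of these groups, with Sox10 at 0 in PD1+Tim3+ labelled dKO and Slc45a2 at 0 in WT PD1+Tim3+. They summed to 22.2 and 24.8 CPM in those labelled dKO and 23.1 and 24.8 CPM in WT, and their part in the result was not tested. The 7 NK cell markers were Ncr1, Klrb1c, Klra8, Eomes, Gata2, Tyrobp and Fcer1g. They summed to 44.7 and 50.5 CPM in PD1+Tim3+ labelled dKO, where 6 were counted and Ncr1 was at 0. In WT PD1+Tim3+ the sums were 82.4 and 85.4 CPM. Such a sum cannot tell NK cells from CD8 T cells that express a listed gene, and its part in the result was not tested.

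The Slc7a11 call passed in 10 of 17 alternatives, and whether it held depended on the library left out. It was kept without either PD1+Tim3+ library labelled dKO and without either WT PD1+Tim3- library. With replicate 1 of WT PD1+Tim3+ left out its adjusted p was 0.250 and its log2 fold change -0.79, and with replicate 2 left out they were 0.0688 and -1.24. With either PD1+Tim3- library labelled dKO left out, which enter through the shared spread, the adjusted p was 0.0767 (replicate 1) or 0.0748 (replicate 2). In limma-voom it was 0.0509 and in a model of those 4 libraries alone 0.0923, and the sign was negative in all 17 alternatives.

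Slc7a11 was the 1 member of 28 called in PD1+Tim3+ cells (3.57%), beside 0.627% of all tested genes, 0.26% higher and 0.367% lower. Slc7a1, the carrier of arginine and lysine, leaned the same way. It had 65.5 and 67.2 CPM in PD1+Tim3+ labelled dKO and 90.8 and 92.7 CPM in WT PD1+Tim3+. Both libraries labelled dKO were below both WT libraries, by more than the spread within either group, but the log2 fold change of -0.47 ± 0.10 had an adjusted p of 0.0944. It passed at 0.0221 without the low-count filter and at 0.0397 with robust empirical Bayes. The other transporters lay close to 0, with log2 fold changes from -0.15 for Slc1a5 to 0.08 for Slc7a6.

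Among enzymes, Got1, the cytosolic aspartate aminotransferase, had 40.8 and 37.3 CPM in PD1+Tim3+ labelled dKO and 49.8 and 49.3 CPM in WT PD1+Tim3+. These groups did not overlap, and the log2 fold change of -0.34 ± 0.12 did not pass (adjusted p 0.248). Aldh18a1, which starts proline synthesis, and Shmt2, the mitochondrial serine hydroxymethyltransferase, had log2 fold changes of -0.37 ± 0.16 (adjusted p 0.379) and -0.29 ± 0.12 (adjusted p 0.372). The upstream serine pathway genes Phgdh, Psat1 and Psph had log2 fold changes of -0.02, 0.15 and 0.06.

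Neither transcription factor gene passed here. Atf4 had 319 and 300 CPM in PD1+Tim3+ labelled dKO and 348 and 363 CPM in WT PD1+Tim3+, a log2 fold change of -0.20 ± 0.12 with an adjusted p of 0.546. Ddit3, which encodes CHOP, a partner and target of ATF4 in prolonged stress, had 40.6 and 35.8 CPM in those labelled dKO and 28.1 and 32.6 CPM in WT. Its groups did not overlap and its sign was opposite to that of Slc7a11, at 0.32 ± 0.13, without passing (adjusted p 0.338). Ddit3 was the 1 tested member whose median coding transcript is under 1000 bases, and over the 946 tested genes of that class the median here was 0.18. Of its exon bases 4.73% are shared with Mars and Gm4189 on the other strand. Over all 28 members 9 had a positive and 19 a negative sign, and the median was -0.07, beside 0.01 for all tested genes. At an unadjusted p under 0.05 there were 1 member higher and 5 lower, 3.57% and 17.9% of the 28, beside 7.1% and 4.91% of all tested genes. Both libraries labelled dKO lay above both WT libraries for 3 members and below for 10, beside 20.7% of all tested genes in each direction.

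**Figure D3:**
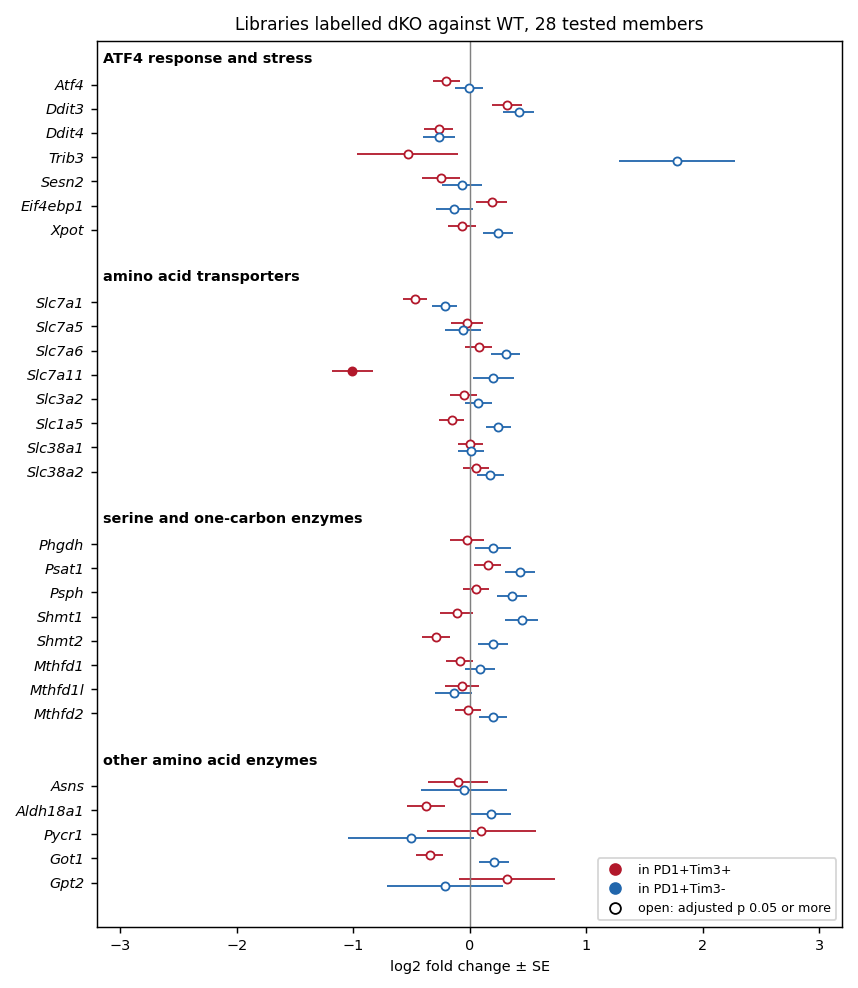
Log2 fold change with its standard error for libraries labelled dKO against WT, in PD1+Tim3+ cells (red) and PD1+Tim3- cells (blue), with a row for each of the 28 tested members. Filled points passed an adjusted p of 0.05, which 1 did, Slc7a11 in PD1+Tim3+ at -1.01.

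In PD1+Tim3- cells, the less differentiated population, no member passed between genotypes. The signs leaned upward for the serine and one-carbon enzymes, of which 7 of 8 were positive with a median log2 fold change of 0.20, beside -0.01 for all tested genes. Psat1, the aminotransferase of the serine pathway, had 51.2 and 48.3 CPM in PD1+Tim3- labelled dKO and 36.0 and 38.4 CPM in WT PD1+Tim3-. Its groups did not overlap, and the log2 fold change of 0.43 ± 0.13 had an adjusted p of 0.460. Psph, which completes serine synthesis, stood at 35.1 and 31.5 CPM in those labelled dKO and 25.2 and 27.6 CPM in WT, 0.36 ± 0.13 with an adjusted p of 0.528. Shmt1, the cytosolic serine hydroxymethyltransferase, had 28.2 and 25.7 CPM in those labelled dKO and 21.0 and 18.9 CPM in WT, also without overlap, at 0.45 ± 0.14 (adjusted p 0.481). Phgdh, which commits glycolytic carbon to serine, had 77.8 and 86.6 CPM in those labelled dKO and 62.4 and 80.02 CPM in WT, and these groups overlapped. The 7 NK cell markers summed to 41.6 to 46.7 CPM in PD1+Tim3- labelled dKO and 66.97 to 75.04 CPM in WT PD1+Tim3-, with 5 counted in each group. Ncr1 was at 0 in both, Gata2 in those labelled dKO and Klra8 in WT. The part of these markers in any result was not tested.

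Trib3, a pseudokinase that ATF4 and CHOP induce and that damps their activity, had the largest fold change of the 28 members but few counts. It had 19 and 7 counts, or 3.44 and 3.67 CPM, in PD1+Tim3- labelled dKO, and 8 and 4 counts, or 1.14 and 0.829 CPM, in WT PD1+Tim3-. The groups did not overlap, and the log2 fold change of 1.78 ± 0.50 had an adjusted p of 0.415. Ddit3 stood at 48.7 and 49.3 CPM in those labelled dKO and 34.0 and 39.6 CPM in WT, a log2 fold change of 0.42 ± 0.13 with an adjusted p of 0.481, and transcripts under 1000 bases had a median of -0.10 here. The mRNA of Atf4 itself overlapped between these groups, at 319 and 307 CPM in those labelled dKO and 292 and 337 CPM in WT. Its log2 fold change was -0.01 ± 0.12. Slc7a11 had 51.8 and 53.5 CPM in PD1+Tim3- labelled dKO and 47.2 and 43.7 CPM in WT PD1+Tim3-, 0.20 ± 0.17 with an adjusted p of 0.804.

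No member was called in edgeR, DESeq2 or limma-voom, where edgeR called 0.0459% of all tested genes, 0.0153% higher and 0.0306% lower. At an unadjusted p under 0.05 there were 7 members higher and 0 lower, 25% of the 28 for the higher direction, beside 4% of all tested genes higher and 4.27% lower. Both libraries labelled dKO lay above both WT libraries for 12 members (42.9%) and below for 3 (10.7%), beside 20.3% and 21% of all tested genes. The median over the 28 members was 0.18. As a log2 difference from the mean of the 8 libraries, the members' median was -0.14 in replicate 1 of WT PD1+Tim3- and 0.004 in replicate 2. It was 0.11 and 0.05 in PD1+Tim3- labelled dKO. Replicate 1 of WT PD1+Tim3- was lowest for 8 members, and replicate 1 of PD1+Tim3+ labelled dKO for 7. The former also enters the comparison of WT populations and the interaction, and its part in these leans was not tested.

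**Figure D4:**
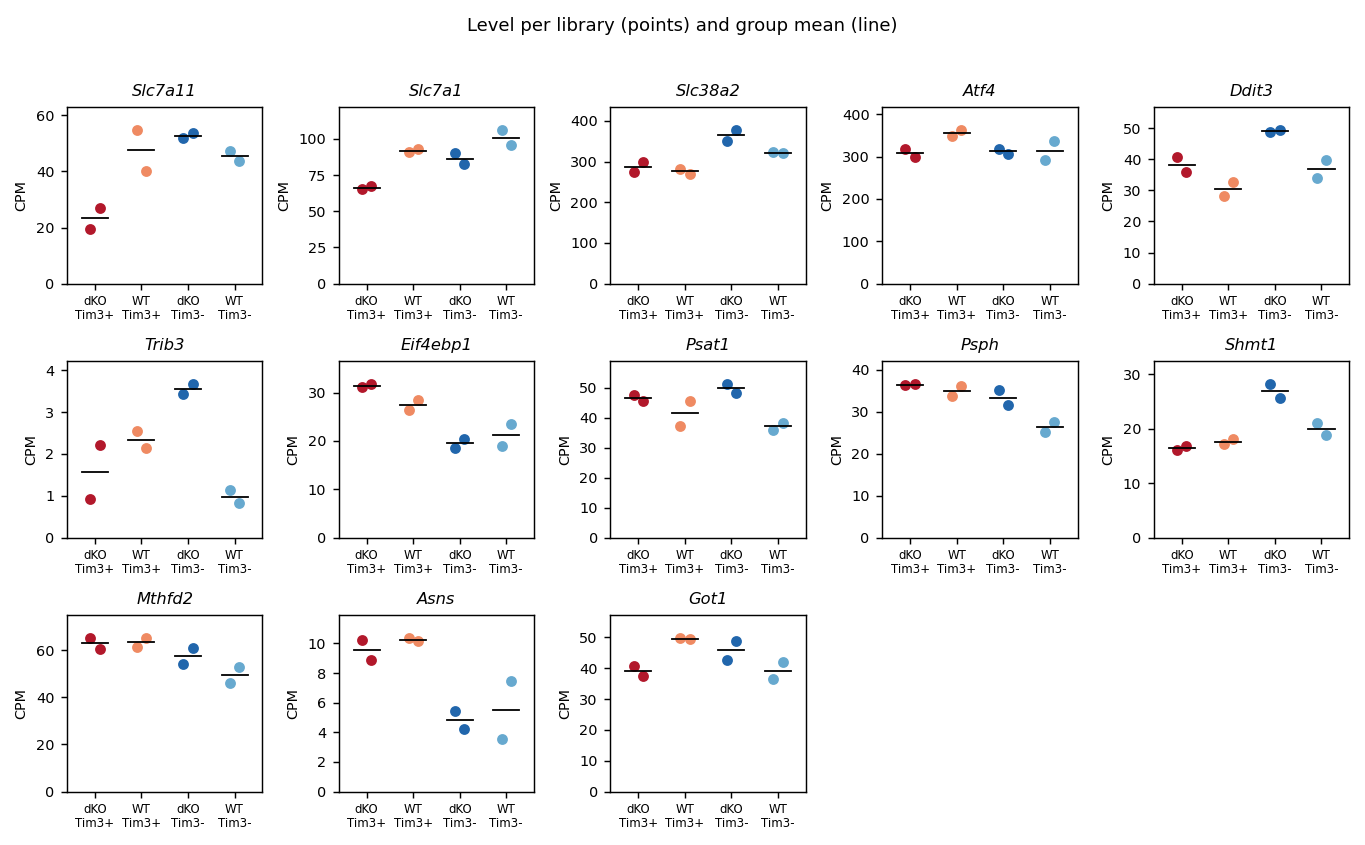
Level in CPM of 13 members in each library (points) with the group mean (line), in a panel for each gene with groups from left to right as dKO PD1+Tim3+, WT PD1+Tim3+, dKO PD1+Tim3- and WT PD1+Tim3-. Slc7a11 sits at 19.6 and 27.0 in PD1+Tim3+ libraries labelled dKO and at 40.3 or more in the other 6, while Atf4 stays between 292 and 363 in all 8.

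The next comparison sets PD1+Tim3+ against PD1+Tim3- cells labelled dKO. Slc7a11, Shmt1 and Slc7a1 fell and Eif4ebp1 rose. Slc7a11 had 19.6 and 27.0 CPM in PD1+Tim3+ and 51.8 and 53.5 CPM in PD1+Tim3-, a log2 fold change of -1.17 ± 0.19 with an adjusted p of 0.00445. Both PD1+Tim3+ libraries were far below both PD1+Tim3- libraries, and the spread within each group was small beside the gap. Without replicate 1 of PD1+Tim3- labelled dKO the adjusted p of Slc7a11 was 0.0783, and it passed in the other 17 of 18 alternatives.

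Shmt1 had 16.01 and 16.8 CPM in PD1+Tim3+ labelled dKO and 28.2 and 25.7 CPM in PD1+Tim3- labelled dKO. Its groups were far apart relative to their spread, at -0.74 ± 0.15 with an adjusted p of 0.0143. Eif4ebp1, an ATF4 target whose product 4E-BP1 holds back cap-dependent translation when mTORC1 is low, had 31.1 and 31.8 CPM in PD1+Tim3+ and 18.5 and 20.5 CPM in PD1+Tim3-. It rose by 0.72 ± 0.16 on the log2 scale, with an adjusted p of 0.0192. Slc7a1 had 65.5 and 67.2 CPM in PD1+Tim3+ and 89.9 and 82.9 CPM in PD1+Tim3-, -0.39 ± 0.11, adjusted p 0.0456.

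Of these, Shmt1 and Eif4ebp1 passed in 15 of 18 alternatives each. Their adjusted p was 0.163 and 0.196 without replicate 1 of PD1+Tim3- labelled dKO, 0.0510 and 0.0711 without replicate 2, and 0.0593 and 0.0656 in DESeq2. Slc7a1 passed in 6 of 18 and missed without any library other than replicate 1 of WT PD1+Tim3-, with adjusted p from 0.0528 without replicate 2 of WT PD1+Tim3- to 0.318 without replicate 1 of PD1+Tim3- labelled dKO.

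Of the 8 tested transporters 6 had a negative and 2 a positive sign in cells labelled dKO. The positive ones were Slc7a5 at 0.22 ± 0.16, whose groups did not overlap, and Slc3a2 at 0.03 ± 0.12. Slc38a2 and Slc1a5 lay lower in PD1+Tim3+ without passing in edgeR's default test. Slc38a2, a sodium-coupled carrier of glutamine and alanine that amino acid shortage induces, had 274 and 298 CPM in PD1+Tim3+ and 351 and 377 CPM in PD1+Tim3-. Its groups did not overlap, at -0.35 ± 0.11 with an adjusted p of 0.0840, and it passed at 0.0380 in limma-voom and 0.0480 with robust empirical Bayes. Slc1a5 had 192 CPM in both PD1+Tim3+ libraries and 239 CPM in both PD1+Tim3- libraries, -0.32 ± 0.11, adjusted p 0.0947, and passed at 0.0480 in limma-voom. The log2 fold change of Ddit3 was -0.36 ± 0.13 (adjusted p 0.130) and that of Trib3 -1.15 ± 0.47 (adjusted p 0.162). Asns, which makes asparagine, had the opposite sign, at 10.2 and 8.87 CPM in PD1+Tim3+ and 5.43 and 4.20 CPM in PD1+Tim3-, 0.91 ± 0.34, adjusted p 0.125.

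Of the 28 members 1 rose and 3 fell in cells labelled dKO, 14.3% in all, beside 9.93% of all tested genes, 5.21% higher and 4.72% lower, so that the share called was near the background. Signs were positive for 10 and negative for 18 members, with a median of -0.13 beside 0.01 for all tested genes. At an unadjusted p under 0.05, 3 were higher and 10 lower, 10.7% and 35.7% of the members, beside 12.7% and 11% of all tested genes. Both PD1+Tim3+ libraries lay above both PD1+Tim3- libraries for 5 members and below for 16, beside 26.2% and 24.7% of all tested genes.

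Among WT cells, PD1+Tim3+ libraries had more Asns, Psph and Mthfd2 than PD1+Tim3- libraries. Asns had 10.4 and 10.1 CPM in WT PD1+Tim3+ and 3.55 and 7.46 CPM in WT PD1+Tim3-, a log2 fold change of 0.96 ± 0.28 with an adjusted p of 0.0374. The PD1+Tim3+ libraries were alike and the PD1+Tim3- libraries were not, with replicate 2 at about 2-fold replicate 1. Psph had 33.8 and 36.0 CPM in WT PD1+Tim3+ and 25.2 and 27.6 CPM in WT PD1+Tim3-, 0.42 ± 0.12, adjusted p 0.0307. Psph shares 10.4% of its exon bases with Cct6a on the other strand, and the sources used here do not give the strand setting of the counts. Mthfd2, the mitochondrial folate enzyme that activated T cells raise, had 61.6 and 65.2 CPM in WT PD1+Tim3+ and 46.2 and 52.7 CPM in WT PD1+Tim3-, 0.37 ± 0.11, adjusted p 0.0445.

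These calls were sensitive to the libraries. Without replicate 1 of WT PD1+Tim3- none of the 3 passed, with adjusted p of 0.390 for Asns, whose log2 fold change was then 0.46, 0.245 for Psph and 0.330 for Mthfd2. Without replicate 2 of WT PD1+Tim3- Psph and Mthfd2 stood at 0.0605 and 0.0526. With replicate 1 or 2 of WT PD1+Tim3+ left out, Asns stood at 0.130 and 0.169, Psph at 0.100 and 0.213, and Mthfd2 at 0.132 and 0.252. With replicate 1 or 2 of PD1+Tim3- labelled dKO left out, Asns missed at 0.0545 and 0.0546 and Mthfd2 at 0.0628 and 0.0606. DESeq2 gave 0.115, 0.294 and 0.308 for Asns, Psph and Mthfd2.

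Other members leaned upward in WT PD1+Tim3+ cells. Got1 had 49.8 and 49.3 CPM in WT PD1+Tim3+ and 36.4 and 41.9 CPM in WT PD1+Tim3-, 0.35 ± 0.11, adjusted p 0.0614. Ddit4, which encodes REDD1, an inhibitor of mTORC1 that stress induces, had 73.3 and 71.1 CPM in WT PD1+Tim3+ and 54.7 and 56.6 CPM in WT PD1+Tim3-, 0.37 ± 0.12, adjusted p 0.0627. Eif4ebp1 had 26.4 and 28.5 CPM in WT PD1+Tim3+ and 18.9 and 23.4 CPM in WT PD1+Tim3-, 0.40 ± 0.14, adjusted p 0.0709. Slc7a11 did not differ by more than its spread, at 54.8 and 40.3 CPM in WT PD1+Tim3+ and 47.2 and 43.7 CPM in WT PD1+Tim3-, 0.04 ± 0.16. The log2 fold change of Trib3 was 1.17 ± 0.46 (adjusted p 0.111) and that of Ddit3 -0.26 ± 0.13 (adjusted p 0.195). Atf4 had 348 and 363 CPM in WT PD1+Tim3+ and 292 and 337 CPM in WT PD1+Tim3-, 0.18 ± 0.12, adjusted p 0.333.

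The 3 members that rose in WT cells are 10.7% of the 28, and 0 fell, beside 17% of all tested genes, 8.25% higher and 8.76% lower, a share near the background. The median of the 28 was 0.11, with 17 positive, and that of all tested genes 0.01. The median coding transcripts of Psph, Asns and Mthfd2 have 1259, 2008.5 and 2085 bases. Over the 5551 tested genes from 1000 to under 3000 bases the median here was 0.12. Over the 4656 tested genes of 3000 bases or more it was -0.03. The 28 members run from 497.5 bases in Ddit3 to 7179 in Slc7a1, so their median is not that of a single length class. The part of transcript length in the upward lean was not tested. At an unadjusted p under 0.05, 8 members were higher and 0 lower, beside 16.3% and 15.3% of all tested genes. These 8 are 28.6% of the members. Both PD1+Tim3+ libraries lay above both PD1+Tim3- libraries for 11 members and below for 8, beside 32.7% and 30.3% of all tested genes.

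**Figure D5:**
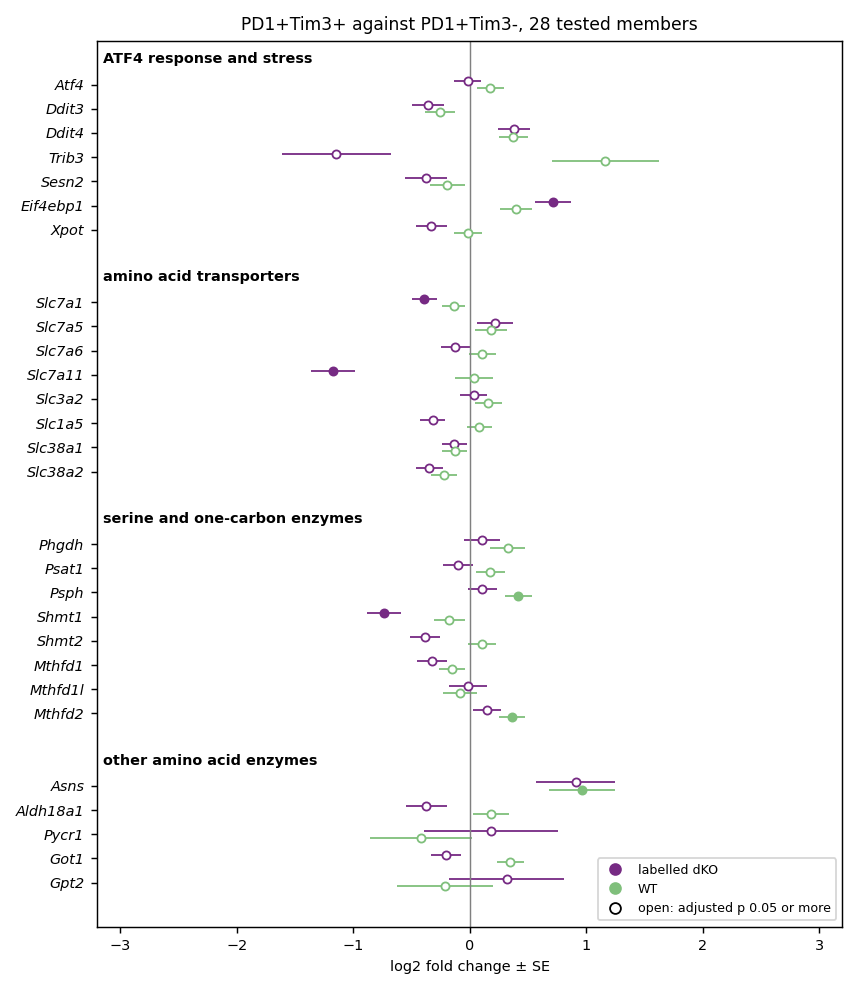
Log2 fold change with its standard error for PD1+Tim3+ against PD1+Tim3-, in cells labelled dKO (purple) and in WT cells (green), with a row for each of the 28 tested members. Filled points passed an adjusted p of 0.05. In cells labelled dKO these are Slc7a11, Slc7a1, Shmt1 and Eif4ebp1, and in WT cells Psph, Mthfd2 and Asns.

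Whether the population difference depends on the genotype label was tested with the interaction, the fold change of PD1+Tim3+ over PD1+Tim3- in cells labelled dKO minus that in WT cells. Slc7a11 had the smallest p among the members, with an interaction of -1.21 ± 0.25 on the log2 scale and an adjusted p of 0.200 in edgeR. DESeq2 gave it an adjusted p of 0.0240, and over its 17 alternatives the adjusted p ran from 2.9e-06 without the low-count filter to 0.715. Trib3 followed at -2.31 ± 0.66 (adjusted p 0.264). Its PD1+Tim3+ libraries had 5 and 12 counts in those labelled dKO, 0.931 and 2.22 CPM, and 15 and 30 counts in WT, 2.55 and 2.14 CPM. Got1 stood at -0.55 ± 0.17 (adjusted p 0.312).

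In edgeR no member and no gene passed the interaction (0% of 13073), and limma-voom called 0 genes as well, whereas DESeq2 called 109 genes, Slc7a11 among them. At an unadjusted p under 0.05 the interaction was negative for 7 members and positive for 0, 25% of the 28 for the negative direction, beside 4.22% negative and 5.87% positive of all tested genes. Signs were negative for 22 members and positive for 6, and the median was -0.21 beside 0.00 for all tested genes. The median was -0.25 in serine and one-carbon enzymes, -0.18 in transporters, -0.18 in the ATF4 response and stress genes and -0.05 in the other enzymes. In 4 members, Got1, Shmt1, Slc1a5 and Slc7a11 (14.3%), both libraries labelled dKO lay above both WT libraries in PD1+Tim3- cells and below both in PD1+Tim3+ cells, beside 4.15% of all tested genes. The reverse held for 0 members and 5.62% of all tested genes.

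Other genes of the pathway were taken from lists in the same fits. Their calls stand beside 17% of all tested genes called between WT populations, 9.93% between populations labelled dKO and 0.627% between genotypes in PD1+Tim3+ cells. Of 20 tested cytosolic aminoacyl-tRNA synthetases, many of which ATF4 induces, 0 passed in edgeR in any of the 5 comparisons, and their medians ran from -0.15 for the interaction to 0.06 for the genotype comparison in PD1+Tim3- cells. At an unadjusted p under 0.05, 1 was higher and 0 lower between genotypes in PD1+Tim3- cells, beside 4% and 4.27% of all tested genes, and 0 in either direction in PD1+Tim3+ cells, beside 7.1% and 4.91%. Between WT populations 1 was higher and 2 lower, beside 16.3% and 15.3%, and between populations labelled dKO 0 were higher and 4 lower, beside 12.7% and 11%. In the interaction 0 were positive and 2 negative, beside 5.87% and 4.22%. Among 14 eIF2alpha kinases, phosphatases and bZIP partners, Atf3, an early stress repressor, rose in PD1+Tim3+ cells labelled dKO to 73.5 ± 16.8 against 39.1 ± 0.51 CPM in WT (SD, n = 2 each). Its log2 fold change was 0.91 ± 0.17, with an adjusted p of 0.0458, the opposite sign to that of Slc7a11. Atf3 also rose in PD1+Tim3+ against PD1+Tim3- cells labelled dKO (1.01 ± 0.19, adjusted p 0.0110). Between WT populations Eif2ak3, the ER stress kinase PERK, rose by 0.61 ± 0.14 and Cebpb by 0.54 ± 0.12, with adjusted p of 0.0139 and 0.0124.

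Among 18 tested other folate, one-carbon and glycine genes, Ahcy, which clears S-adenosylhomocysteine (0.85 ± 0.11, adjusted p 0.00104), and Ggh, a folate hydrolase (0.81 ± 0.24, adjusted p 0.0379), rose between WT populations. In cells labelled dKO the folate carrier gene Slc19a1 (-0.78 ± 0.19, adjusted p 0.0324), the purine enzyme gene Gart (-0.42 ± 0.11, adjusted p 0.0429) and Fpgs, which traps folates in the cell (-0.92 ± 0.26, adjusted p 0.0492), fell. The list's median was -0.13 there and -0.00 in WT.

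Among 25 genes of amino acid sensing upstream of mTORC1, 2 rose and 4 fell between WT populations, beside 8.25% higher and 8.76% lower of all tested genes, and 3 rose and 1 fell between populations labelled dKO, beside 5.21% and 4.72%. Lamtor1, of the Ragulator complex that holds mTORC1 at the lysosome, rose in WT (0.57 ± 0.11, adjusted p 0.00585) and in cells labelled dKO (0.51 ± 0.12, adjusted p 0.0228). Rraga, of the Rag GTPases, fell in WT (-0.59 ± 0.12, adjusted p 0.00803) and in cells labelled dKO (-0.47 ± 0.13, adjusted p 0.0433). The other calls in WT were Lamtor3 at 0.60 ± 0.18, Lamtor2 at -0.61 ± 0.12, Castor2, an arginine sensor relative, at -1.42 ± 0.27 and Bmt2, the S-adenosylmethionine sensor SAMTOR, at -0.82 ± 0.18. In cells labelled dKO they were Lamtor4 at 0.77 ± 0.17 and Lamtor5 at 0.62 ± 0.15. Of 11 tested other transporters Slc43a3 rose in WT (0.83 ± 0.19, adjusted p 0.0141) and in cells labelled dKO (1.05 ± 0.21, adjusted p 0.0132). Although listed with amino acid transporters, Slc43a3 is known as a carrier of purine nucleobases. Of 19 enzymes of glutamine, proline, arginine and polyamines, Ass1, which makes argininosuccinate, rose in WT (0.57 ± 0.14, adjusted p 0.0161) and in cells labelled dKO (0.61 ± 0.15, adjusted p 0.0326). Bcat2 (0.60 ± 0.14) rose and Cad (-0.47 ± 0.14) fell in WT, and Glud1 (0.42 ± 0.11) rose in cells labelled dKO. Between genotypes Atf3 was the 1 gene called in these 6 lists. The calls of these lists were not recomputed with libraries left out or with another tool.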

How the data were processed

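The deposited data are whole-number read counts by gene symbol, in 1 table with 8 libraries. Per the submitters' processing notes, genome build mm10, cutadapt 1.18 and Bowtie2 2.2.5 were used, and the sources used here do not give the counter, annotation, strand setting or treatment of multi-mapping reads. Near-identical copies such as Phgdh-ps1 could therefore share reads with Phgdh. The final row names no gene and holds the column totals, so it entered neither library sizes nor tests. Columns that name PD1 alone were taken as PD1+Tim3-, because the Tim3+ columns are named apart.

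Counts were tested with edgeR 4.0.16 in R 4.3.3, by the quasi-likelihood F test on TMM-scaled libraries. Low-count genes were removed with filterByExpr at its defaults, given the 4 groups. A single model of all 8 libraries left 4 residual degrees of freedom, so p-values assume that the groups vary alike. A call is an adjusted p (Benjamini-Hochberg, over all 13073 tested genes) under 0.05, and adjusted p-values without a named tool are from this test. Standard errors are the log2 fold change divided by the root of its F value. Alternatives were DESeq2 1.42.0, limma-voom of limma 3.58.1, other filters and scaling, and each library left out. The procedure was also run on simulated data in which all groups had the same spread for a gene. That run cannot tell how groups of unequal spread affect the calls. Within every group the replicates' counts differed beyond sampling noise. The chi-square per gene was 3.38 in PD1+Tim3- labelled dKO and in WT PD1+Tim3+, 11.5 in PD1+Tim3+ labelled dKO and 18 in WT PD1+Tim3-. By this measure, which also depends on library size, the groups did not vary alike. Exon lengths and coordinates are from GENCODE M21 (GRCm38), and promoter windows from RefSeq.

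Members and lists were chosen with earlier results of these data known. Members described with all values were those called in a comparison, filled up to 12 by smallest p, plus Atf4. Called genes of the other lists were named, up to 6 by smallest p in each list and comparison, and others were added for their role. Some results of the folate list are not reported here.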

Additional observations from a re-analysis of the deposited data

Results flagged for a closer look

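In 4 members both libraries labelled dKO lay above both WT libraries in PD1+Tim3- cells and below both in PD1+Tim3+ cells. They are Slc7a11, with an interaction of -1.21 on the log2 scale, Got1 with -0.55, Shmt1 with -0.56 and Slc1a5 with -0.40. The pattern held for 14.3% of the 28 tested members and for 4.15% of all tested genes. The reverse pattern held for 0 members and for 5.62% of all tested genes. The interaction itself did not pass in edgeR for any of the 4, with adjusted p of 0.200 for Slc7a11, 0.312 for Got1, 0.378 for Shmt1 and 0.406 for Slc1a5, and unadjusted p of 4.77e-04, 0.00796, 0.0173 and 0.0225. Slc1a5 had 192 CPM in both PD1+Tim3+ libraries labelled dKO, 218 and 209 CPM in WT PD1+Tim3+, 239 CPM in both PD1+Tim3- libraries labelled dKO and 192 and 211 CPM in WT PD1+Tim3-. No group had the 4 libraries that a test for a stray library needs.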

How the results depend on the processing

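Of the member values recomputed under the alternatives, 2364 kept their side of the threshold, 50 lost and 19 gained a call, and no called value changed sign. Between genotypes 0 members were called in PD1+Tim3- cells under every alternative. In PD1+Tim3+ cells, against 1, the count was 0 in limma-voom, with the replicate number as a block and in a model of the compared libraries alone, 2 without the low-count filter and with robust empirical Bayes, and 0 to 1 with a library left out. Between WT populations, against 3, it was 0 in DESeq2 and with the replicate block, over all libraries or within genotype, 5 in a model of the compared libraries alone, and 0 to 5 with a library left out. Between populations labelled dKO, against 4, it was 1 in DESeq2, 6 in limma-voom, where Slc1a5 and Slc38a2 were gained, 5 with robust empirical Bayes, where Slc38a2 was gained, 3 with the replicate block, and 0 to 5 with a library left out. For the interaction, against 0, it was 1 in DESeq2 and without the filter, Slc7a11 both times, and 0 with any library left out. With the replicate block the adjusted p of Slc7a11 between genotypes in PD1+Tim3+ cells was 0.0865, those of Asns, Psph and Mthfd2 between WT populations 0.0675, 0.0581 and 0.0740, and that of Slc7a1 between populations labelled dKO 0.0865, so that these 5 calls were lost. Same-numbered libraries of different groups did not deviate together, with correlations of -0.181 to 0.0231, and the labels do not say that a number marks a shared source. Over all tested genes the calls were 6 between genotypes in PD1+Tim3- cells, 82 in PD1+Tim3+ cells, 2223 between WT populations, 1298 between populations labelled dKO and 0 for the interaction. Without the low-count filter they were 232, 486, 2690, 1764 and 331. With a library left out they ran from 0 to 31, 6 to 413, 433 to 2773, 132 to 1392 and 0 to 323. With DESeq2 they were 6, 73, 1314, 940 and 109, with limma-voom 0, 74, 2373, 1121 and 0, and with robust empirical Bayes 56, 121, 1919, 1076 and 4. With the replicate block they were 0, 40, 1672, 716 and 0, and in models of the compared libraries alone 3, 38, 2624 and 950. The cause of these changes was not tested, beyond fewer libraries in the fits that leave some out. The fit without ribosomal RNA genes was chosen after seeing the data. Replicate 2 of PD1+Tim3- labelled dKO has the lowest total, so that Trib3 rests there on 7 counts.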
